A study of Mus musculus with 19 samples.

Results

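Lung transcripts of mice given the highest dose of a polycyclic aromatic hydrocarbon mixture (D3) were compared directly with those of mice given the lowest dose (D1), with no vehicle group in the contrast. The comparison took every array labelled D3 and every array labelled D1, which came to 9 of the 19 arrays and 8 of the 18 mice in the series. D1 held mice 21, 22, 24 and 25, and D3 held mice 31, 32, 34 and 35. Mouse 35 had 2 arrays, which were averaged.

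All animals were adult male MutaMouse (about 12 weeks old), a transgenic strain on a mixed BALB/C and DBA/2 background that carries a bacterial reporter gene for mutation assays. Both groups received the same mixture of 8 polycyclic aromatic hydrocarbons in olive oil by oral gavage on 28 consecutive days, at 15 (D1) or 60 (D3) mg benzo[a]pyrene (BaP) equivalents/kg-day, so every animal compared here was exposed and the groups differed in dose. An intermediate group (D2, 30 mg BaP equivalents/kg-day, 5 mice) is quoted for its levels, and the olive oil control group (D0) entered none of the values in the main comparison. Lung was collected 72 h after the final dose. The values are log2 ratios of lung RNA (Cy5, red) over a reference RNA pooled from 11 mouse cell lines (Cy3, green), so a positive value means a transcript was more abundant in lung than in the reference, and a difference of 1 between mice is a 2-fold difference.

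Polycyclic aromatic hydrocarbons bind the aryl hydrocarbon receptor (AHR), a transcription factor that switches on Cyp1a1, Cyp1b1 and other genes of xenobiotic metabolism. The encoded cytochrome P450 enzymes, together with the epoxide hydrolase encoded by Ephx1, turn these hydrocarbons into diol epoxides that bind DNA. DNA damage stabilises the transcription factor p53, which activates genes for cell cycle arrest (Cdkn1a), for its own negative feedback (Mdm2, Ccng1) and for apoptosis or growth control (Aen, Phlda3, Zmat3), and the arrested cell cycle lowers genes of mitosis. Lung is a mixed tissue, and its RNA comes from alveolar and airway epithelium, endothelium, fibroblasts and resident leukocytes.

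The arrays were of even quality. Ratios of different mice correlated across probes at r = 0.949 to 0.983, against 0.988 for the 2 arrays of mouse 35. The lung markers Sftpb, Sftpc (surfactant proteins), Scgb1a1 (club cell secretory protein) and Ager (alveolar type 1 cells) were well above background in 8 of 8 mice. The share of red spots well above background was 57.5% ± 2.0 (SD, n = 4) for the low dose, and for the top dose it was 58.5% ± 3.4 (SD, n = 4) (2-sided exact permutation test, p = 0.686, smallest possible 0.0286). Arrays lay on 3 slides, each scanned on 1 day, and every slide held both groups. D1 always lay in array column 2 and D3 in column 4, and these positions cannot be told apart from dose. Of 55681 probes, 28915 were well above background in all mice of 1 group and were tested.

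Few transcripts separated the top dose from the low dose. A probe was called if its limma p, adjusted by Benjamini-Hochberg over all tested probes, did not exceed 0.05 and it differed 1.5-fold or more, and 32 probes met both criteria (0.111% of those tested). Of these, 23 probes were higher in D3 (0.0795%), covering 14 gene symbols, and 9 were lower (0.0311%), covering 8 symbols. The adjusted p alone was met by 35 probes (0.121%), 24 higher and 11 lower. At an unadjusted p under 0.05 there were 1009 higher and 1199 lower probes. In all 23 and all 9 called probes the D3 mice lay outside the range of the D1 mice, as they did for 2.21% of all tested probes on the higher side and 2.47% on the lower side. The difference also kept its sign on all 3 slides for every called probe, although slide 3 held 1 mouse per group and mouse 35 had an array on both slides 2 and 3, so the slides are not independent. The same mice chose these probes, so neither their separation nor their sign within slides is further support. The median change over all tested probes was -0.01. With single mice left out, 2 to 18 probes were called higher and 0 to 4 lower, and with arrays scaled by median centring instead of loess 0 were called (268 probes at an unadjusted limma p under 0.05).

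**Figure D1:**
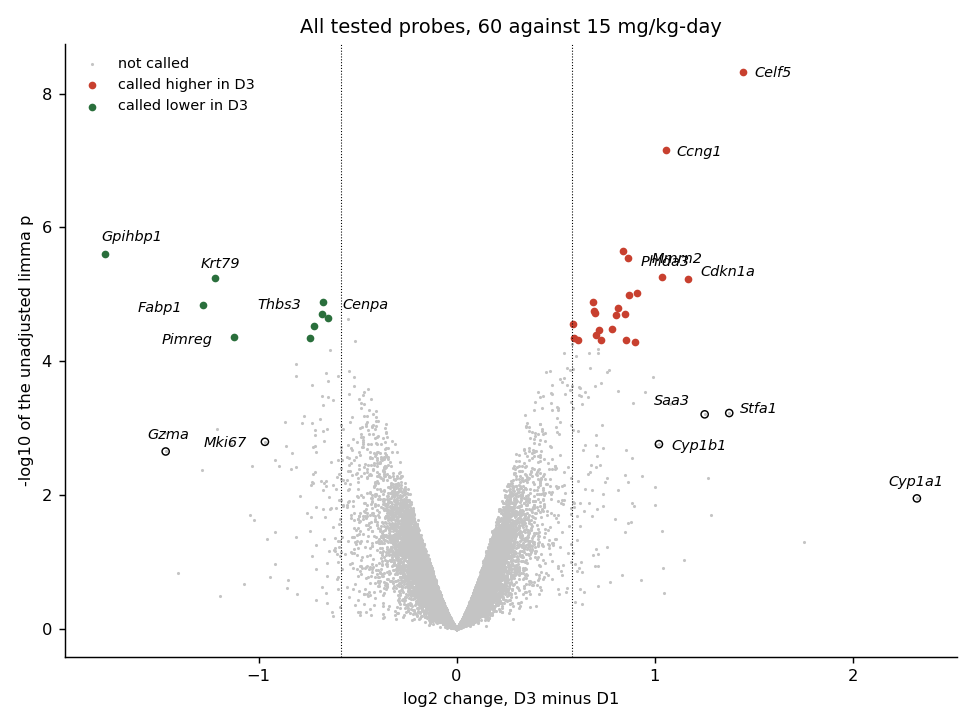
Each point is a tested probe, with its log2 change (D3 minus D1) on the horizontal axis and -log10 of its unadjusted limma p on the vertical axis, and dotted lines mark a 1.5-fold change. Red and green points are the 23 probes called higher and the 9 called lower, and open circles are named genes that were not called, among them Cyp1a1 with the largest increase of any tested probe.

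Of the 14 genes called higher, 8 stood on a hand-written list of p53 targets, which covers 38 of the 14256 tested gene symbols. The list was written with earlier results of these data known, so this count is a description. By log2 change the 14 genes were Celf5, Cdkn1a, Ccng1, Mmrn2, Zmat3, Phlda3, Gdf15, Zfp365, Aen, Thyn1, Ddit4l, Ephx1, Ddias and Ccnd1. The 8 on the list were Cdkn1a, Ccng1, Zmat3, Phlda3, Gdf15, Aen, Ddit4l and Ephx1. Because p53 binds a known DNA motif, the promoters of the called genes are shown first. The p53 half-site (3 purines, C, 2 bases that are A or T, G, and 3 pyrimidines) was searched on both strands of RefSeq promoter windows (assembly GRCm38.p6, 250 bases before to 50 bases after each annotated start). Of the 14 genes called higher, 11 had a window, and 5 of the 11 (45.5%) held at least 1 half-site, against 8.64% of the 11315 tested genes with a window and 8.36% of all windows. Of the 8 genes called lower, 6 had a window and 0 held one, and of the p53 list 11 of 31 genes with a window did (35.5%). Cdkn1a was also 1 of 7 tested genes (0.0619%) with 2 half-sites separated by at most 13 bases, the arrangement of a full p53 site. A match describes letters in a window and does not show binding. The stretches around these matches follow, 5′ to 3′ on the gene's strand, with the half-sites in capitals. Cdkn1a lies at chr17:29090859-29090978 on the plus strand, Celf5 at chr10:81482817-81482936 on the minus strand, Ccng1 at chr11:40755407-40755526 on the minus strand, Ddit4l at chr3:137623527-137623646 on the plus strand and Aen at chr7:78895882-78896001 on the plus strand, and each stretch ends upstream of the annotated start it belongs to. The Aen half-site also lies at positions 11 to 20 downstream of another annotated start of the gene.
Cdkn1a: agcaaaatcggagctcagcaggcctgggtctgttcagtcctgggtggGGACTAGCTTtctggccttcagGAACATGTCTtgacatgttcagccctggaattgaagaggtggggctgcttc
Celf5: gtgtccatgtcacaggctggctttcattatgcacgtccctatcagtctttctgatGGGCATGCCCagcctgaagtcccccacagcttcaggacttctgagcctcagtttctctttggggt
Ccng1: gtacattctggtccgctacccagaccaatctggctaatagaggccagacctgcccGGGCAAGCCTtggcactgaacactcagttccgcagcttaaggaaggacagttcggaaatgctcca
Ddit4l: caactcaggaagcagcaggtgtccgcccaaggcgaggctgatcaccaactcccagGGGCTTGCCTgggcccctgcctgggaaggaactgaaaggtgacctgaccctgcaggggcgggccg
Aen: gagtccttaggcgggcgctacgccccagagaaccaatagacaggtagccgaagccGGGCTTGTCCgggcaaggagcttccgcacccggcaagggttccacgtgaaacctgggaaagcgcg

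Cdkn1a (NM_007669) encodes p21, the cyclin-dependent kinase inhibitor through which p53 arrests the cell cycle. Its log2 ratio was 0.72, 1.04, 1.504 and 1.20 in D1 mice 21, 22, 24 and 25, and 2.17, 2.26, 2.25 and 2.46 in D3 mice 31, 32, 34 and 35. The D3 mice lay close together and well above the highest D1 mouse. The log2 change was 1.17 ± 0.15 (SE), a 2.25-fold increase (limma adjusted p = 0.0216). A second probe of the gene gave a log2 change of 0.85 ± 0.12 (SE, limma adjusted p = 0.0314). The promoter of Cdkn1a shown above is the one with 2 neighbouring half-sites. The window of another annotated start of the gene (chr17:29093519-29093818) held no half-site.

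Ccng1 (NM_009831), cyclin G1, is a p53 target that feeds back on the p53 regulator Mdm2. Its log2 ratio was between 0.0020 and 0.14 in the D1 mice and between 1.03 and 1.26 in the D3 mice, the gap between groups being several times the spread within them. The log2 change was 1.06 ± 0.09 (SE), or 2.08-fold (limma adjusted p = 0.00101). Within slides 1, 2 and 3 the difference was 1.19, 0.90 and 0.97.

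Celf5 (NM_176954) encodes an RNA-binding protein of the CELF family of splicing regulators and was the transcript with the smallest p of all. Its log2 ratio was -1.69, -1.63, -1.39 and -1.66 in the D1 mice and -0.20, -0.18, -0.11 and -0.08 in the D3 mice. Both groups were tight and far apart, and the log2 change was 1.45 ± 0.09 (SE), or 2.73-fold (limma adjusted p = 0.000137). A second probe of Celf5 was well above background in 0 of 4 D1 mice and in 4 of 4 D3 mice. It entered the test through D3 alone and adds no support for Celf5.

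The other genes of the p53 list called higher were Phlda3, Zmat3, Gdf15, Aen, Ddit4l and Ephx1. Phlda3, an inhibitor of Akt signalling, had log2 ratios of 1.27 to 1.66 in D1 and 2.24 to 2.43 in D3, a change of 0.86 ± 0.10 (SE, limma adjusted p = 0.0168). Zmat3, an RNA-binding zinc finger protein, ranged from -0.91 to -0.27 in D1 and from 0.14 to 0.55 in D3, a change of 0.90 ± 0.14 (SE, limma adjusted p = 0.0442). Gdf15, a secreted stress cytokine of the TGF-beta family, ranged from 0.16 to 0.84 in D1 and from 1.33 to 1.54 in D3, a change of 0.86 ± 0.13 (SE, limma adjusted p = 0.043). For all 3 genes the D3 mice were separate from D1. Aen, an apoptosis-enhancing nuclease, was called on 2 probes, with log2 changes of 0.80 ± 0.11 and 0.79 ± 0.12 (SE). Ddit4l, an inhibitor of mTOR signalling, changed by 0.71 ± 0.11 (SE). Ephx1, microsomal epoxide hydrolase, links the p53 group to hydrocarbon metabolism, since its enzyme hydrolyses their epoxides. Its log2 ratio was 2.12 to 2.37 in D1 and 2.71 to 3.01 in D3, a change of 0.61 ± 0.10 (SE, limma adjusted p = 0.043), and a second probe with separate groups gave 0.43 ± 0.09 (SE) and was not called (limma adjusted p = 0.113). With slide as a block, Gdf15 and Ddit4l missed the threshold (limma adjusted p = 0.0837 and 0.0761), and Ephx1 stayed past the adjusted p (0.0441) but its change of 0.58 fell short of 1.5-fold.

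The remaining genes called higher stood on none of the lists. Mmrn2, multimerin 2 of the endothelial extracellular matrix, was the most lung-enriched of them, with log2 ratios of 6.23, 6.08, 6.53 and 6.51 in D1 and 7.18, 7.37, 7.31 and 7.64 in D3. It changed by 1.04 ± 0.13 (SE), or 2.06-fold (limma adjusted p = 0.0216). Zfp365, whose product has been tied to the DNA damage response, changed by 0.81 ± 0.11 (SE), with the D1 mice between -0.61 and -0.50 and the D3 mice between -0.0035 and 0.46. Thyn1, a thymocyte nuclear protein, changed by 0.72 ± 0.11 (SE). Ddias, a DNA damage-induced suppressor of apoptosis, and Ccnd1, cyclin D1, the G1 cyclin, changed by 0.59 each, just past the 1.5-fold threshold, and with slide as a block Ddias missed the adjusted p (limma, 0.0833). Ddias and Ccnd1 lie outside the rule for naming genes and are named because they complete the called set.

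**Figure D2:**
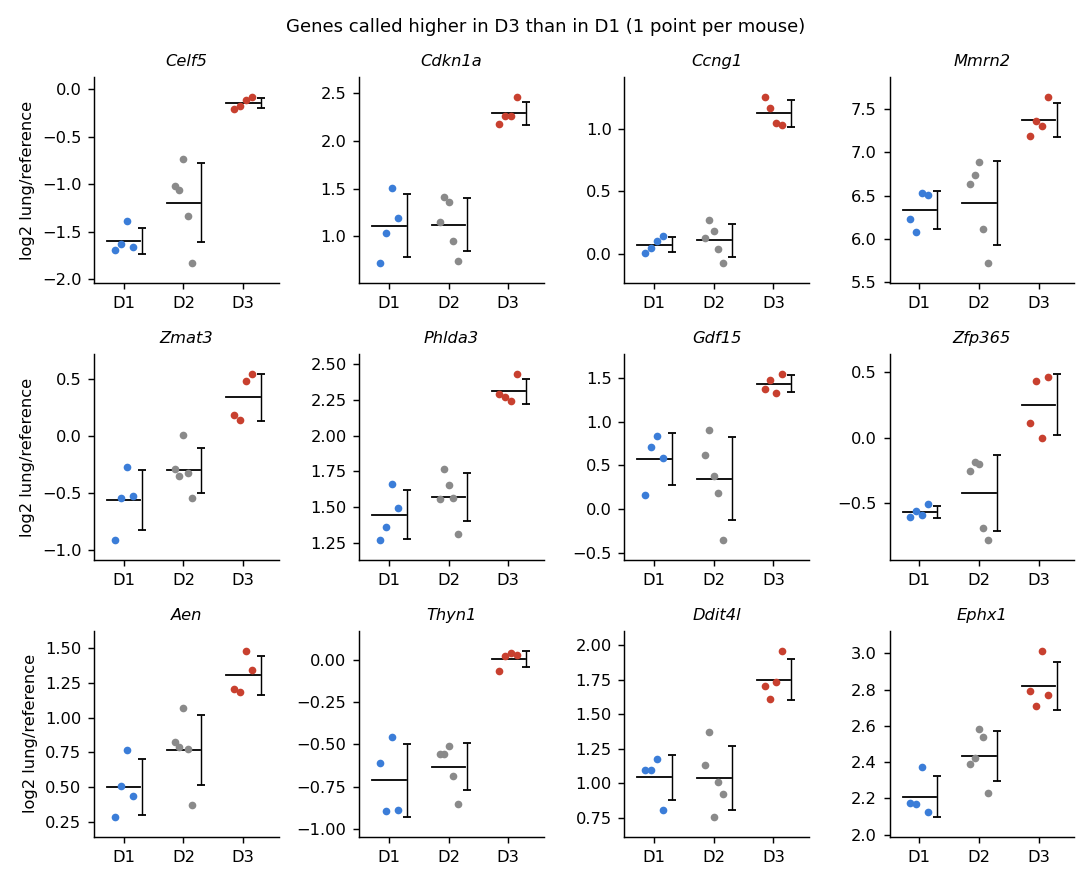
Points are single mice, with the log2 lung/reference ratio on the vertical axis and the dose groups D1, D2 and D3 on the horizontal axis, and lines and bars give the group mean and SD. In all 12 panels every D3 mouse lies above every D1 mouse, and the D2 mean lies nearer to D1 than to D3.

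Of the 23 probes called higher, 7 had no gene symbol, and 6 of these 7 fell in 3 genomic regions of non-coding probes (mouse build mm9, as named in the array design). Region chr4:149445201-149445902, plus strand, was called on 3 probes with log2 changes of 0.91, 0.87 and 0.84, and its D3 mice ranged from 1.25 to 1.74 against 0.37 to 1.03 in D1. Region chr17:29183003-29217681, minus strand, was called on 2 probes with changes of 0.70 and 0.69, the latter not called with slide as a block (limma adjusted p = 0.0675). The probes of a region moved by nearly the same amount. Region chr1:163508244-163586072, plus strand, was called on 1 probe with a change of 0.69 ± 0.09 (SE, limma adjusted p = 0.0314), and the last probe matched the cDNA AK141429 with a change of 0.73 ± 0.11 (SE, limma adjusted p = 0.043). No annotation of build mm9 was used here, so these regions are given by coordinates only.

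The p53 list held 40 genes, of which 38 were tested and 37 were well above background in all 8 mice. Of the 38, 8 were called higher (0.0795% of all tested probes were) and 0 lower, 31 had a positive change, and the median change was 0.22, against -0.01 and 46.6% positive over all tested probes. The list had been assembled with earlier results of these data known, so its direction is not independent evidence. The mean log2 ratio over the list was 0.15, 0.23, 0.33 and 0.27 in the D1 mice and 0.55, 0.54, 0.57 and 0.61 in the D3 mice. The D3 mice were thus nearly equal on this scale, and all of them were above D1. Mdm2, the ubiquitin ligase that degrades p53, had separate groups (D1 0.15 to 0.54, D3 0.80 to 0.94) and a change of 0.51 ± 0.11 (SE), which passed neither threshold (limma adjusted p = 0.167). At the other end of the list were members with no sign of an increase, which are named here after their values were seen. They include Ddb2 (0.06) and Xpc (0.05), damage recognition factors of nucleotide excision repair, and the death receptor gene Fas (-0.07). The lowest was Ckap2 (-0.77), which encodes a protein of the mitotic spindle.

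The lists of DNA repair and apoptosis gave no calls. Among 23 genes of nucleotide excision repair and lesion bypass, 0 were called and 0 had an unadjusted limma p under 0.05, and the median change was 0.05. Its largest change was in Polk, the lesion-bypass polymerase kappa, with 0.35 ± 0.17 (SE, limma adjusted p = 0.676), and a second Polk probe gave 0.13. The median of this list turned to -0.05 with median centring, a scaling that moved the median of all tested probes by -0.10. Of 37 tested apoptosis regulators 0 were called, with 4 higher and 5 lower at an unadjusted limma p under 0.05 (3.49% and 4.15% over all tested probes) and a median of -0.0059, a sign that turned under 11 alternatives. Tnfrsf10b, a p53-induced death receptor, was the highest of them at 0.65, and Birc5 (survivin, also a mitotic gene) was the lowest at -0.84 ± 0.23 (SE, limma adjusted p = 0.337).

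**Figure D3:**
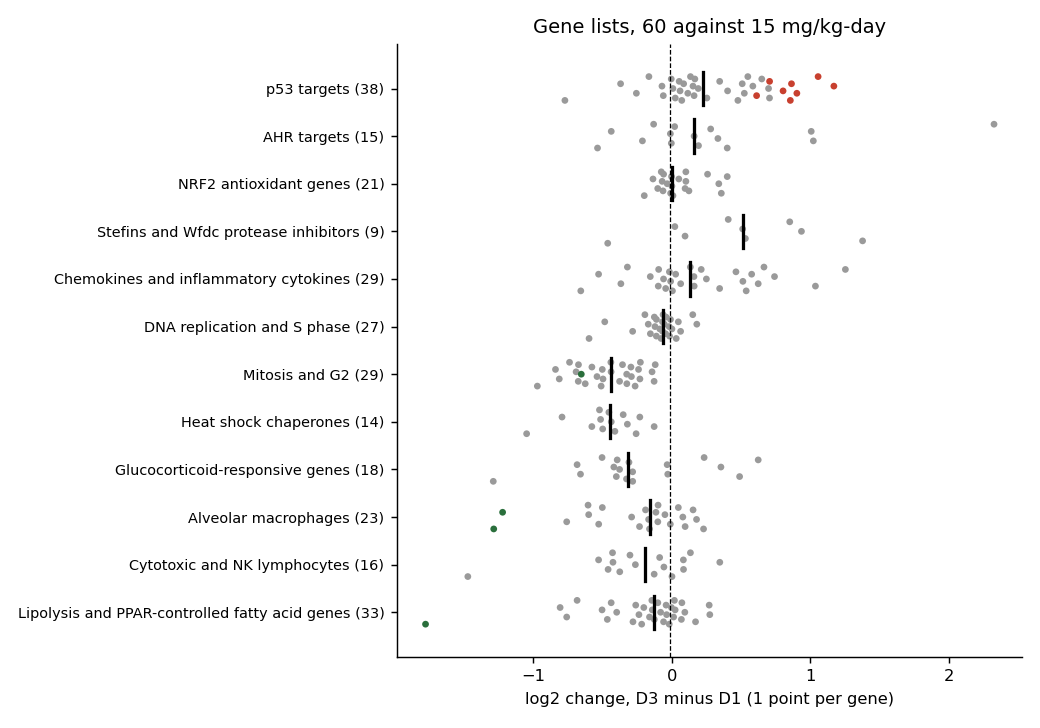
Each point is a tested gene (its brightest probe), placed by its log2 change (D3 minus D1) in the row of its list, with the number of genes tested in parentheses. Bars are list medians, the dashed line is the median of all tested probes (-0.01), red and green points were called higher and lower, and the 8 red points all belong to the p53 list.

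At the intermediate dose the genes called higher stood closer to the low dose. For all 23 probes called higher, the mean of the D2 mice was nearer to D1 than to D3, and it lay between the D1 and D3 means for 19 of the 23. Among all 124 tested probes at least 1.5-fold higher in D3, the D2 mean was nearer to D1 for 77.4%, among the 117 at least 1.5-fold lower for 60.7%, and for all tested probes for 52%. For Ccng1 the D1 average was 0.07 ± 0.06 (SD, n = 4). It was 0.11 ± 0.13 (SD, n = 5) at the intermediate dose and 1.13 ± 0.11 (SD, n = 4) at the top dose. Cdkn1a averaged 1.11, 1.12 and 2.28 in the same order. The mean over the p53 list was 0.14 to 0.33 in the D2 mice, against 0.15 to 0.33 in D1. Cyp1a1 averaged 2.11, 3.79 and 4.44 in D1, D2 and D3, Cyp1b1 -0.39, 0.37 and 0.64, both nearer to D3 at the intermediate dose, as were 8 of the 15 genes on the AHR list, with 7 nearer to D1. The clock genes Arntl and Dbp were also nearer to D3 at the intermediate dose. Of the 9 probes called lower, the D2 mean lay between the groups for 9 and was nearer to D1 for 6. On a linear scale the D2 dose (30) is itself nearer to the D1 dose (15) than to the D3 dose (60), and on a log scale it is midway. These D2 levels are a description and were not tested. The array labelled D2 Mouse 23 bears a number from the D1 series. The animal numbers given in the methods, too, are higher by 1 for D1 and lower by 1 for D2 than those in the labels, which would put this mouse in D1. It was kept in D2 as labelled, where it had the lowest mean over the p53 list (0.14, against 0.24 to 0.33 in the other D2 mice). Without it, a choice made after seeing the data, the D2 mean was nearer to D1 for 22 of the 23 probes called higher and 5 of the 9 called lower, and for 74.2% and 45.3% of the probes at least 1.5-fold higher and lower.

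The genes called lower formed a more varied set. Gpihbp1 (NM_026730), which anchors lipoprotein lipase on capillary endothelium, had the largest decrease of any tested probe. Its log2 ratio was 5.72, 5.20, 6.02 and 5.82 in the D1 mice and 3.37, 3.95, 4.09 and 4.25 in the D3 mice, so the groups were separated by almost 1 log2 unit. It fell by 1.77 ± 0.20 (SE) on the log2 scale, to 0.292 of the D1 level (limma adjusted p = 0.0168). The within-slide differences were -1.79, -1.82 and -1.64. Of 24 endothelial markers tested, 12 were positive and 12 negative with a median of 0.00060, and Gpihbp1 was the 1 called. The mean over the endothelial list was 3.76 to 4.199 in D1 and 3.70 to 3.86 in D3, and the sign of its median turned under 9 alternatives. In whole lung, fewer cells of a type and less RNA per cell cannot be told apart.

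Krt79, a type II keratin, and Fabp1, a fatty acid binding protein, are both on the list of alveolar macrophage markers. Krt79 was 3.31, 3.68, 3.95 and 3.57 in D1 and 2.49, 2.43, 2.66 and 2.06 in D3. Fabp1 was 4.37, 3.68, 3.98 and 3.98 in D1 and 3.04, 2.94, 2.58 and 2.31 in D3. Neither gene had overlapping groups, and they fell by 1.22 ± 0.15 and 1.28 ± 0.18 (SE) on the log2 scale (limma adjusted p = 0.0216 and 0.0314). The list held 23 tested genes, of which these 2 were called lower and 0 higher, 17 were negative, and the median was -0.16. Over all tested probes 0.0311% were called lower and 53.4% were negative. Its highest member was Marco, a macrophage scavenger receptor, at 0.23. The list mean was 2.86 to 3.22 in D1 and 2.79 to 2.91 in D3, with overlapping groups, and its part in the change of Krt79 and Fabp1 was not tested.

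Pimreg and Cenpa act in mitosis. Pimreg, a regulator of the metaphase to anaphase transition, was -2.57, -2.93, -2.19 and -2.04 in D1 and -3.47, -3.40, -3.79 and -3.57 in D3, a change of -1.12 ± 0.17 (SE, limma adjusted p = 0.043). Cenpa, the histone H3 variant of centromeres, was -2.25, -2.45, -2.50 and -2.24 in D1 and -2.88, -3.07, -2.995 and -3.10 in D3, a change of -0.65 ± 0.09 (SE, limma adjusted p = 0.0327). Both were far below the reference RNA, and the groups did not overlap for either gene. The remaining decreases were in Syt15 (a synaptotagmin, -0.74 ± 0.11), Tmed5 (a secretory pathway protein, -0.72 ± 0.11) and Thbs3 (thrombospondin 3, -0.68 ± 0.10 and -0.68 ± 0.09 on 2 probes), each ± SE. The probes of Tmed5 disagreed, since its second probe had a difference of -0.08 ± 0.10 (SE, limma adjusted p = 0.902). With slide as a block, Pimreg, Cenpa, Syt15 and Tmed5 kept their direction and missed the threshold (limma adjusted p = 0.0762, 0.0645, 0.0833 and 0.0762), while Gpihbp1, Krt79, Fabp1 and Thbs3 stayed called.

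**Figure D4:**
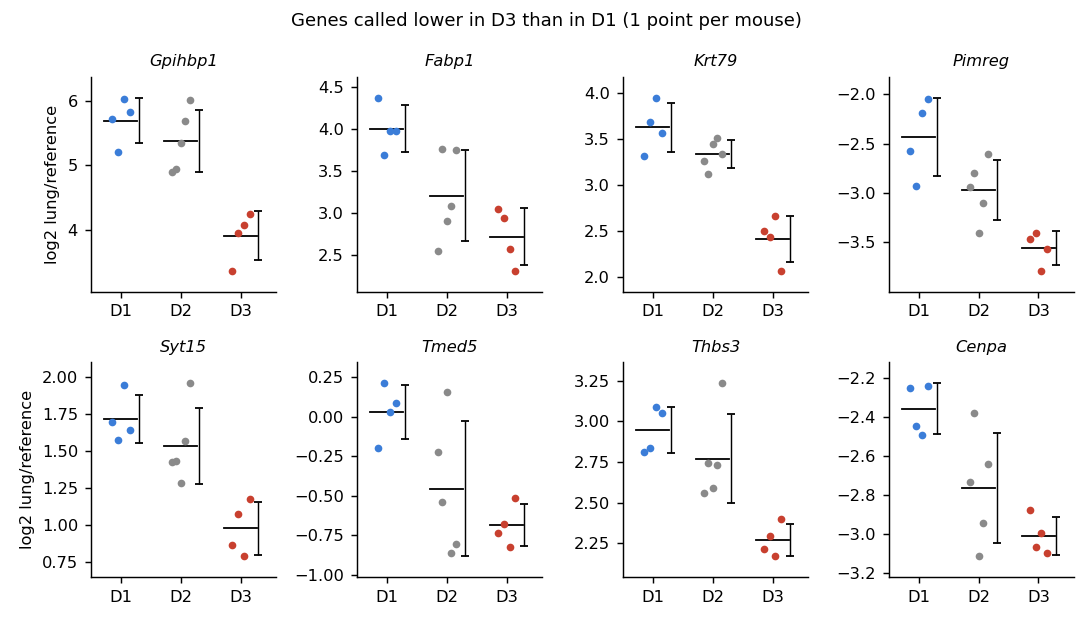
Points are single mice, with the log2 lung/reference ratio on the vertical axis and the groups D1, D2 and D3 on the horizontal axis, and lines and bars give the group mean and SD. In all 8 panels every D3 mouse lies below every D1 mouse, and the largest step is that of Gpihbp1 from a mean of 5.69 in D1 to 3.92 in D3.

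The naming rule adds genes with separate groups that were not called. Sgo1 (shugoshin, which protects centromeric cohesin in mitosis) had a difference of -0.81 (limma adjusted p = 0.0757) and Cd209a (a dendritic cell lectin) one of -0.81 (limma adjusted p = 0.0889). Nlrp1a, an inflammasome sensor, had a difference of -0.66 (limma adjusted p = 0.084), but its second probe gave -0.08.

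Among genes of mitosis and G2, Cenpa was the 1 member called, a call lost with slide as a block (limma adjusted p = 0.0645). Of 33 genes on the list 29 were tested and 27 were well above background in all 8 mice. All 29 mean changes were negative (53.4% of all tested probes were). For 8 genes the groups were separate with D3 lower, as for 2.47% of all tested probes. Changes ran from -0.97 (Mki67) to -0.12 (Foxm1) with a median of -0.44. Of the 29, 23 had an unadjusted limma p under 0.05, against 4.15% of all tested probes on the lower side. The median stayed negative under every alternative, between -0.75 and -0.34. The mean over the list was -2.67, -2.88, -2.46 and -2.34 in the D1 mice and -3.08, -3.06, -3.23 and -2.83 in the D3 mice. D1 mouse 22 and D3 mouse 35 met in the middle, so the groups overlapped by a small margin. For level only, the vehicle mice (D0, outside this comparison) averaged -3.26 over the list, against -2.59 in D1 and -3.05 in D3. The D3 mean thus lay between those of D1 and vehicle. Mki67, the proliferation marker Ki-67, was -2.93, -3.02, -2.36 and -2.08 in D1 and -3.66, -3.77, -3.86 and -2.97 in D3, a change of -0.97 ± 0.23 (SE, limma adjusted p = 0.239). Top2a, topoisomerase II alpha, had separate groups and a change of -0.51 ± 0.13 (SE, limma adjusted p = 0.288).

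Many mitotic genes carry a promoter element, the cell cycle homology region (CHR, letters TTTGAA), through which they can be held down in arrested cells. On either strand it was found in 17 of 25 genes of the list with a promoter window (68%), in 14.7% of the tested genes and in 17.9% of all windows. The list was chosen as mitotic genes, so this share describes the list and not the change between doses. Whether arrest or the CHR had a part in that change was not tested. The 30 bases around the match in Cenpa (chr5:30666890-30666919 on the plus strand, GRCm38.p6) are printed because Cenpa is the member called, with the CHR in capitals.
Cenpa: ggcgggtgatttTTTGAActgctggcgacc

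Genes of DNA replication and S phase gave no calls. Of 27 tested, 0 were called, 1 had an unadjusted limma p under 0.05 (on the lower side), and the median change was -0.07, close to the median of all probes. The largest change was in Rrm2, a subunit of ribonucleotide reductase, with -0.59 ± 0.28 (SE, limma adjusted p = 0.673). The difference between the mitotic and the S phase list was not tested.

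Among direct targets of the AHR, Cyp1a1 had a large difference and a wide spread between mice. Cyp1a1 (NM_009992), the classical AHR target, had log2 ratios of 2.48, 1.54, 4.01 and 0.43 in the D1 mice and 6.18, 3.30, 5.03 and 3.24 in the D3 mice. D1 mouse 24 was above D3 mice 32 and 35, so the groups overlapped. The log2 change of 2.32 ± 0.77 (SE), or 5.01-fold, was the largest increase of any tested probe and was not called (limma adjusted p = 0.466). The difference was 2.73 on slide 1, 0.03 on slide 2 and 3.01 on slide 3. Cyp1b1 (NM_009994) was -0.69, -0.49, -0.0027 and -0.36 in D1 and 1.44, 0.18, 0.71 and 0.22 in D3. Its groups did not overlap, and its change of 1.02 ± 0.25 (SE) was not called (limma adjusted p = 0.244). Ahrr, the AHR repressor, had a difference of 0.33 ± 0.16 (SE), and Nqo1, a quinone reductase induced through AHR and NRF2, one of 0.40 ± 0.11 (SE), neither of them called (limma adjusted p = 0.668 and 0.359). Of 15 tested genes on the AHR list 0 were called, 9 were positive and the median was 0.16. The sign of this median held under every alternative, and the list mean was 0.56 to 0.76 in D1 and 0.76 to 1.15 in D3, with the groups nearly touching. The core of the AHR binding element (XRE, letters GCGTG on either strand) was found in 8 of the 11 genes called higher with a promoter window (72.7%), in 52.3% of the tested genes and in 32.4% of all windows.

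**Figure D5:**
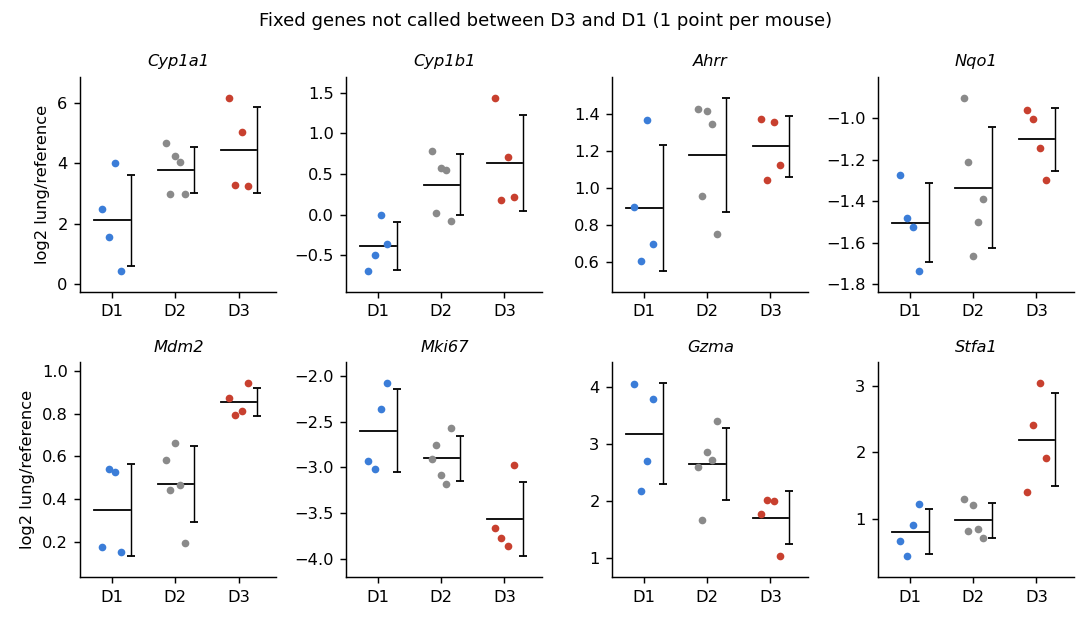
Points are single mice, with the log2 lung/reference ratio on the vertical axis and the groups D1, D2 and D3 on the horizontal axis, and lines and bars give the group mean and SD. None of the 8 genes was called, and in Cyp1a1 the D1 mice span 0.43 to 4.01 and the D3 mice 3.24 to 6.18.

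Other lists of xenobiotic, oxidative and lipid metabolism gave 1 call, Gpihbp1. Ephx1, the epoxide hydrolase called higher (0.61), was counted on the p53 list and on none of these, so this tally depends on where it was placed. NRF2 antioxidant genes had a median of 0.0022 over 21 genes with 0 called, and that sign turned under 5 alternatives. Of 14 tested Cyp2, Cyp3 and Cyp4 enzymes 0 were called (median -0.06), the largest change being in Cyp2a4 with -0.49 ± 0.23 (SE, limma adjusted p = 0.661). Of 28 conjugating enzymes and carboxylesterases 0 were called (median -0.05), with changes from -0.73 (Sult1d1, a sulfotransferase) to that of Ces2e. Ces2e, a carboxylesterase, had a difference of 0.74 ± 0.24 (SE, limma adjusted p = 0.439), with D1 between 2.11 and 3.31 and D3 between 2.95 and 3.75. Among 12 carbonic anhydrases Car14 had the largest change, -0.66 ± 0.20 (SE, limma adjusted p = 0.409), 0 were called, and the median was -0.04, which turned sign under 3 alternatives. The list of lipolysis and PPAR-controlled fatty acid genes had 24 of 33 negative changes, 6 of them at an unadjusted limma p under 0.05 (53.4% and 4.15% over all tested probes), and a median of -0.12, with Gpihbp1 as the 1 call. Fabp1, the fatty acid binding protein called lower (-1.28), was counted on the alveolar macrophage list and not on this one. Cholesterol genes had a median of -0.02 over 22 genes (turning sign under 3 alternatives), with 0 called.

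Genes of the circadian clock were not called. Arntl (Bmal1), which activates clock genes, was -1.41, -0.41, -0.80 and -0.05 in D1 and between -1.35 and -1.25 in all 4 D3 mice, a change of -0.64 ± 0.23 (SE, limma adjusted p = 0.491). The spread in D1 was far wider than in D3. Its targets Dbp and Per2 had differences of 0.37 ± 0.19 and 0.27 ± 0.16 (SE, limma adjusted p = 0.702 and 0.75), and Per1 one of -0.42 ± 0.18 (SE, limma adjusted p = 0.628). The medians were -0.0092 over 5 activators, a sign that turned under 6 alternatives, and 0.18 over 13 repressors and outputs.

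Stress hormone and chaperone genes leaned lower without calls. All 14 tested heat shock chaperones were negative (median -0.44, 8 at an unadjusted limma p under 0.05, 0 called), where 53.4% of all tested probes were negative and 4.15% were lower at that p. The list was led by Hsph1, a co-chaperone of Hsp70, with -1.04 ± 0.38 (SE, limma adjusted p = 0.514). The list mean was -0.30, 0.59, 0.18 and 0.59 in D1 and -0.08, -0.29, -0.30 and -0.13 in D3. D1 mouse 21 was as low as the lowest D3 mouse, and the spread was in D1. Of 18 glucocorticoid-responsive genes 14 were negative and 4 positive (median -0.32, 0 called). At an unadjusted limma p under 0.05, 7 were lower and 3 higher (4.15% and 3.49% over all tested probes), and Lcn2 was highest at 0.62. Zbtb16, a zinc finger repressor strongly induced by glucocorticoids, had the largest change, -1.29 ± 0.36 (SE, limma adjusted p = 0.345). Immediate early genes had a median of 0.11 that turned to -0.05 with median centring, with Fos highest at 0.44 ± 0.13 (SE, limma adjusted p = 0.359) and 0 of 19 called.

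Markers of leukocytes gave no call outside the alveolar macrophage list. Gzma, granzyme A of cytotoxic lymphocytes, was 4.04, 2.17, 2.70 and 3.79 in D1 and 1.78, 2.02, 2.00 and 1.03 in D3. The groups did not overlap, but D1 mouse 22 lay close to D3 mouse 32, and the change of -1.47 ± 0.37 (SE) was not called (limma adjusted p = 0.269). Ccl5, a chemokine of the same cells, had a difference of -0.53 ± 0.27 (SE, limma adjusted p = 0.701). The list of cytotoxic and NK lymphocytes had 11 of 16 negative changes, a median of -0.19 and 0 calls, and 11 of its 16 tested genes were well above background in all 8 mice. T cell genes were positive in 18 of 21 (median 0.23, led by Cd5 with 0.37), with 0 calls. Their list mean was -0.13 to 0.05 in D1 and -0.08, 0.22, 0.45 and -0.08 in D3, so D3 mice 32 and 34 were higher and the other two lay within D1, and the median was 0.09 without mouse 34. B cell genes were negative in 17 of 19 (median -0.19, led by Cd72 with -0.41), with 0 calls and overlapping list means.

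Genes of neutrophils and acute inflammation gave no calls. Stfa1, a stefin protease inhibitor of neutrophils, was 0.68, 0.45, 0.91 and 1.22 in D1 and 1.40, 2.41, 3.03 and 1.92 in D3, a change of 1.38 ± 0.29 (SE, limma adjusted p = 0.155). It was well above background in 3 of 4 D1 mice, its probe may also bind near-identical stefin transcripts, and its groups did not overlap. Wfdc17 also had separate groups, with a change of 0.94 ± 0.27 (SE, limma adjusted p = 0.364). Over the stefins and Wfdc protease inhibitors 8 of 9 changes were positive with a median of 0.51. Neutrophil genes as a list had 15 positive and 10 negative changes, from -0.66 (Ltf, lactoferrin) to that of Stfa1. At an unadjusted limma p under 0.05, 8 were higher and 2 lower (3.49% and 4.15% over all tested probes). The list mean was 1.79 to 1.95 in D1 and 1.90, 1.99, 2.70 and 1.83 in D3, so D3 mouse 34 stood apart and the other D3 mice lay close to D1. The median was 0.10 over 25 genes, which turned to -0.04 with the scanner software's processed signals. Saa3, an acute phase protein, was -2.97, -3.14, -2.96 and -2.40 in D1 and -1.90, -1.80, -2.06 and -0.69 in D3, a change of 1.25 ± 0.27 (SE, limma adjusted p = 0.159). It led a list of 29 chemokines and inflammatory cytokines with a median of 0.14 and 0 calls, of which 7 were higher and 0 lower at that unadjusted p.

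The remaining leukocyte lists had medians near 0 or below it and no calls. Dendritic cell and MHC class II genes had a median of -0.13 (18 genes, Cd209a lowest), and monocytes and interstitial macrophages one of -0.0014 (19 genes), whose sign turned under 9 alternatives, with C1qb (complement) at -0.49 as its largest change. Eosinophil, mast cell and basophil genes had 11 of 12 negative changes (median -0.29), led by Ear10, an eosinophil-associated ribonuclease, at -0.62. Interferon-stimulated genes had a median of -0.05 over 35 genes, led by Igtp, an interferon-induced GTPase, at -0.60.

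Markers of the structural cells of the lung gave medians within 0.13 of 0 and no call beyond Gpihbp1. Alveolar type 2 markers had a median of -0.03 over 22 genes, turning sign without mouse 24 or mouse 31, and Hc (complement C5) was lowest at -0.58 ± 0.17 (SE, limma adjusted p = 0.377). Alveolar type 1 markers had a median of -0.0077 over 15 genes, which turned under 8 alternatives, with Igfbp2 highest at 0.71. Club cell and ciliated cell markers had medians of -0.13 and -0.03, and their largest changes were in Bpifa1 (an airway secretory protein, -1.19 ± 1.14, SE) and Tekt1 (tektin of cilia, -0.25). Fibroblast and matrix genes had a median of 0.07 over 32 genes, turning to -0.06 with median centring, with Des (desmin, of muscle cells) largest at -0.55. Markers of blood cells were also uncalled, with Slc4a1 (the erythrocyte anion exchanger) at 0.69 and Pf4 (platelet factor 4) at 0.53 as the largest changes of the erythroid and platelet lists. Their medians were 0.09 and 0.11, and both turned sign without D3 mouse 34, the erythroid one also with median centring.

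Cardiac muscle genes differed between single animals. Their list mean ran from 0.70 to 4.05 in D1 and from 0.60 to 3.54 in D3. The median change was -0.31 over 13 genes, with 0 called, and it was 0.06 without D1 mouse 22 and 0.19 without D3 mouse 35. Nppa, the atrial natriuretic peptide, was 3.30, 4.57, 0.12 and 0.14 in D1 and 0.13, 0.19, 2.02 and 0.15 in D3, so 3 of the 8 mice stood far above the other 5. Heart and pulmonary vein muscle both make these transcripts. No called gene is on this list.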

How the data were processed

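Lung RNA (Cy5) and Universal Mouse Reference RNA (Cy3) were hybridised to 2-colour Agilent arrays with no dye swap, so ratios are open to dye bias. Per the file headers (Feature Extraction 11.0.1.1) the scanner files give each spot's median intensity, not normalized, and a processed intensity from which background and dye effects had been removed. The authors also deposited a table of normalized log2 ratios, used as an alternative. Control spots (3671 of 62976) and spots marked as outliers (171 to 312 per array) were left out, and 0 were saturated.

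Median intensities were loess-normalized within each array (span 0.3) without background subtraction and averaged per probe. D3 and D1 (4 mice each) were fitted with limma 3.58.1 in R 4.3.3 (lmFit, eBayes), which was tested on simulated data. Tested probes had a red signal well above background in all 4 mice of either group. The residual-shuffling test of the study's methods was not run. The number of arrays limits the precision.

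RefSeq (GRCm38.p6) gave symbols for 27235 of 28685 RefSeq-type identifiers. The comparison, the 37 gene lists (818 genes, 703 tested, each by its brightest probe) and the naming rule were chosen with earlier results of these data known. The rule names 21 fixed genes, up to 12 called genes each way by size (filled with uncalled genes with separate groups and the lowest p), and, per list, the members past the adjusted p (the 2 largest each way where over 4) or else the largest change. Alternatives were another normalization, background correction, filter or variance model, slide as a block, a fit over all 4 groups, either array of mouse 35, array D2 Mouse 23 counted in D1, and leaving out each mouse. A few genes that the rule would name are not reported here.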

Additional observations from a re-analysis of the deposited data

Results flagged for a closer look

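Single mice stood apart from the rest of their group in 5 of 150 groups of 4 examined for the named genes, by the gap to the nearest mouse as a share of the group's range, a check that picks out about 1 in 20 groups by chance. Bpifa1 was 0.73 in D1 mouse 24, with 6.07 in the next mouse. Zbtb16 was 4.98 in the same mouse, with 3.79 in the next. Per2 was 1.12 in D3 mouse 32, with 1.70 in the next mouse, Igfbp2 was 3.96 in D3 mouse 35, with 3.11 in the next, and Nppa was 2.02 in D3 mouse 34, with 0.19 in the next. None of these 5 genes was called.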

How the results depend on the processing

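The direction of all 32 called probes was the same under every alternative, but the number called depended on the scaling and on single mice. With median centring in place of loess limma called 0 higher and 0 lower (268 probes at an unadjusted p under 0.05), and this scaling shifted the median of all tested probes by -0.10. With the scanner software's processed signals 2 were called higher and 0 lower (2229 probes at an unadjusted p under 0.05), and with the red channel alone 10 higher and 1 lower. With the array labelled D2 Mouse 23 counted in D1, 15 were called lower. In these 4 settings the cause was not tested. The other alternatives gave 20 to 34 higher and 8 to 11 lower, apart from 32 higher with D2 Mouse 23 in D1. Without any 1 mouse 2 to 18 were called higher and 0 to 4 lower (1881 to 2379 probes at an unadjusted p under 0.05). Higher calls numbered 2 without mouse 21, 25 or 32, 3 without mouse 31 or 35, 5 without mouse 22, 12 without mouse 34 and 18 without mouse 24. Lower calls numbered 0 without mouse 25 or 32, 1 without mouse 21, 31 or 35, 3 without mouse 22 or 24 and 4 without mouse 34. A fit of 3 against 4 mice has fewer samples. Celf5 and Ccng1 were called in all 22 alternatives except median centring, with log2 changes of 1.29 to 1.90 and 0.90 to 1.14. Cdkn1a (0.97 to 1.30) lost its call in 8 of 22, Gpihbp1 (-2.04 to -1.57) in 5, Krt79 in 8 and Ddias in 15. Slide as a block removed the calls of Gdf15, Ddit4l, Ephx1, Pimreg, Syt15, Tmed5, Cenpa, Ddias and 1 of the 2 probes of the chromosome 17 region. Among the changes of the named genes 1 turned sign, that of Bpifa1, to 0.19 with the processed signals. No paired analysis was possible because no mouse number occurs in both groups, and arrays were matched by slide in the fit with slide as a block instead.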

Other observations

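Several transcripts outside the lists had larger changes than most called genes and were not called. They are named here after their values were seen, from among the 12 largest changes each way. Trim12a and Trim34a, both tripartite motif genes, were higher by 1.76 ± 0.80 and 1.29 ± 0.47 (SE) on the log2 scale (limma adjusted p = 0.652 and 0.516). Cyp26b1, which degrades retinoic acid, was higher by 1.15 ± 0.63 (SE, limma adjusted p = 0.73), and Cstdc5, a stefin family gene, by 1.08 ± 0.22 (SE, limma adjusted p = 0.128). On the lower side Cdh16, a cadherin, stood at -1.14 ± 0.28 (SE, limma adjusted p = 0.244). Of the tested probes that differed by at least 1.5-fold, 18.5% of the higher and 7.69% of the lower ones were called.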
